A study of Homo sapiens with 6 samples.

Results

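The HOX genes encode homeodomain transcription factors that give cells their position along the head-to-tail axis of the embryo. In each cluster the genes lie in the order in which they act along that axis, with low-numbered genes at the end used toward the head and high-numbered genes at the end used toward the tail. Work in mouse has shown that enhancers in the flanks of a HOX cluster can contact its genes over long distances, and that silent clusters are held together by Polycomb proteins. The chromatin loops described here are those with at least 1 anchor in the HOXB landscape (hg19, chr17:46000000-47500000) or the HOXC landscape (hg19, chr12:53400000-55400000). This choice by position gave 126 of the 46849 loops of the list, 64 around HOXB and 62 around HOXC. The HOXB cluster was taken as 46.60 to 46.81 Mb and the HOXC cluster as 54.33 to 54.45 Mb, and the rest of each landscape as its lower and higher flank.

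The loops come from Micro-C, a Hi-C variant that cuts chromatin with micrococcal nuclease, in HAP1, an adherent human line that descends from leukaemia cells. The 6 replicates form 1 group of cells sorted for a diploid DNA content, and they were fixed with 1% formaldehyde for 10 min and with 3 mM DSG, a protein crosslinker, for 45 min. The authors deposited 1 loop list for all 6 replicates, so no value has a spread between replicates and no group can be compared with another. Intervals below cover counting error only. Anchors were 5 kb wide for 54 of the 64 HOXB loops and 54 of the 62 HOXC loops, and 10 kb wide for the rest, whose larger pixels collect more contacts. HOX gene activity in these cells was not analysed here.

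The order of the genes was read from the RefSeq gene table (GRCh38.p14), in which all 19 HOXB and HOXC genes were found. On chromosome 17, coordinates rise from HOXB1, which patterns the hindbrain, through HOXB2 to HOXB9, to HOXB13, a tail-end gene active in the prostate. On chromosome 12 the order is turned round: coordinates rise from HOXC13, needed for hair and nails, to HOXC4. The nearest protein-coding genes are related on matching sides. Beyond HOXB1 lie SKAP1, SNX11 and CBX1, which encodes a heterochromatin protein, and beyond HOXC4 lie SMUG1, CBX5, a relative of CBX1, and HNRNPA1. Beyond HOXB13 lie TTLL6, CALCOCO2 and ATP5MC1, and beyond HOXC13 lie CALCOCO1, ATP5MC2 and ATF7. The table is of another build than the loops, so no anchor was assigned to a gene. Anchors are named below by their lower edge in Mb of hg19.

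The clusters also share a microRNA, shown because it is a sequence link between the HOXB and HOXC landscapes. MIR196A1 lies between HOXB9 and HOXB13, and MIR196A2 between HOXC10 and HOXC9. Both give the same mature miR-196a-5p, which is known to target the messenger RNA of HOXB8. MIR10A lies between HOXB4 and HOXB5, and MIR615 lies within HOXC5. The mature sequences, from RefSeq (GRCh38.p14), are written 5′ to 3′ with the seed (bases 2 to 8) in capitals:
hsa-miR-196a-5p: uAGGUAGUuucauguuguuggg
hsa-miR-10a-5p: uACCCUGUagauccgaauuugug
hsa-miR-615-3p: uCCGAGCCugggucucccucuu
No seed was shared among the 3.

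The HOXB cluster was split into a part that looped toward lower coordinates, the HOXB1 side, and a part that looped toward higher coordinates, the HOXB13 side. Of the 19 loops with an anchor in the cluster, 9 ran to the lower flank, 8 ran to the higher flank and 2 stayed inside. Every cluster anchor that sent a loop to the lower flank began at or below 46.695 Mb. From 46.75 Mb upward, 7 of 7 loops that left the cluster went to the higher flank, and below it 9 of 10 went to the lower flank. This position was taken from the same loops, as the start of a hub described below whose loops all ran higher. The counts therefore describe the split and do not test it. How often other places split as cleanly was not counted. The exception to the split joined 46.65 to 47.07 Mb with 30 contacts in a single pixel. No loop joined the flanks over the cluster. That in itself is common: of 11761 tiles of 210 kb with an anchor, laid end to end over the series, 28.0% had no loop passing over them.

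**Figure D1:**
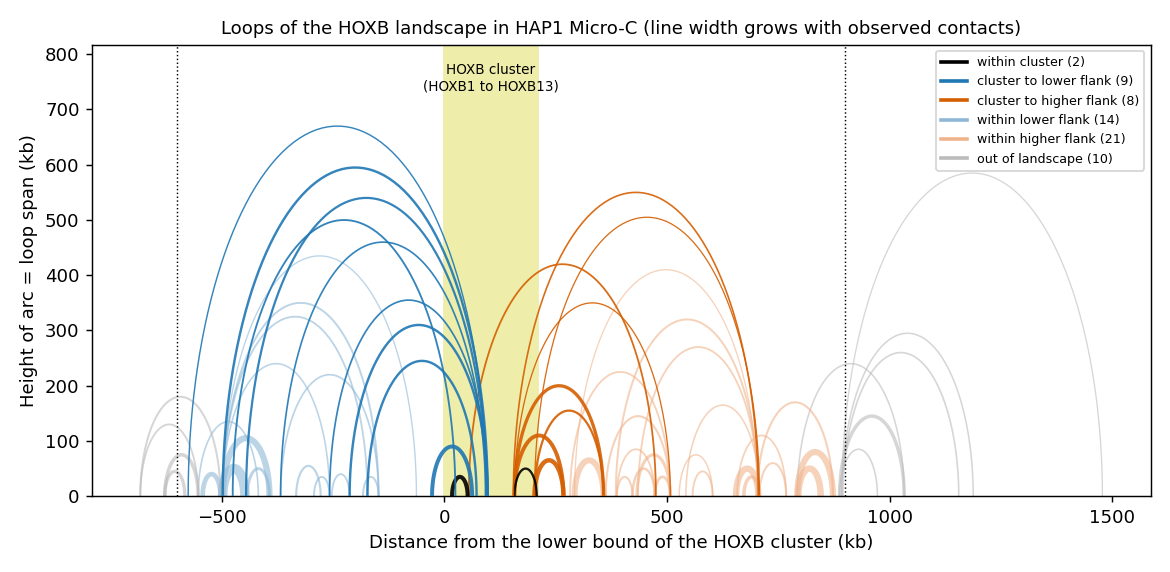
Loops of the HOXB landscape as arcs over their distance from the cluster's lower bound (kb), with height equal to span (kb), width growing with observed contacts and colour by class; dotted lines mark the ends of the landscape. The 9 loops to the lower flank leave from the left part of the shaded cluster, and 7 of the 8 loops to the higher flank leave from its right part.

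Loops to the HOXB1 side gathered at a hub at 46690001 to 46700000, which held 6 loops, all to lower coordinates. Observed contacts in its loops were 18 to 46.02 Mb, 51 to 46.10 Mb, 44 to 46.15 Mb, 26 to 46.23 Mb, 27 to 46.34 Mb and 51 to 46.385 Mb. Those to 46.02 and 46.15 Mb had 10 kb anchors. The loop to 46.10 Mb stood above the rest, with 9.04 times the contacts expected from the donut of pixels around it (exact Poisson 95% interval 6.73 to 11.9) over 595 kb. The ratio of the loop to 46.385 Mb was 4.15 (3.09 to 5.45), and the intervals of these loops did not overlap. The ratio of the loop to 46.02 Mb, the longest of the HOXB landscape at 670 kb, was 2.00 (1.18 to 3.16). Its largest q-value in the authors' deposited table was 0.779. The remaining loops to the lower flank left from other anchors below the hub, and 46.57 to 46.66 Mb was the best filled of them, with 101 contacts and a ratio of 5.68 (4.63 to 6.91). A loop between 46.425 and 46.67 Mb had 50 contacts, and a loop between 46.12 and 46.62 Mb had 32 contacts at a ratio of 2.01.

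Loops to the HOXB13 side left from a hub at 46750001 to 46760000 and an anchor at 46800001 to 46805000. The hub held 5 loops, all to higher coordinates, and the other anchor held 3, again all to higher coordinates. Both were joined to the same 2 places, 46.865 and 46.955 Mb. From the hub these loops had 99 and 79 contacts, with ratios of 6.91 (5.62 to 8.41) and 8.02 (6.35 to 10.0). From 46.80 Mb they had 119 and 45 contacts, with ratios of 7.18 (5.94 to 8.59) and 5.54 (4.04 to 7.41). These 4 loops carried most of the 424 contacts summed over the 8 loops to the higher flank. The 9 loops to the lower flank summed to 400. The sums include 2 and 3 loops of 10 kb anchors, whose pixels collect more contacts, so they are not compared. The other loops that left the cluster from the hub and from 46.80 Mb were thin. The hub had 25 contacts to 47.30 Mb and 14 to 47.105 Mb, and 46.80 Mb had 13 to 47.305 Mb.

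The hubs lie 50 kb apart, and a single loop, the exception named above, crossed the space between them. Across the series, 6.71% of 47497 merged anchors held 5 or more loops, and in 30.7% of those all loops ran to 1 side. In the HOXB cluster 2 of 9 anchors held 5 or more loops, and each of these ran to 1 side. With each of the 4 q-values required to be at or below 0.1, the anchor at 46.69 Mb kept 4 of its 6 loops and that at 46.75 Mb kept 3 of its 5, so that neither held 5. Without the loops of 10 kb anchors, neither held 5 either. The loops of a hub share an anchor and are not independent, so no test of the split is given.

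**Figure D2:**
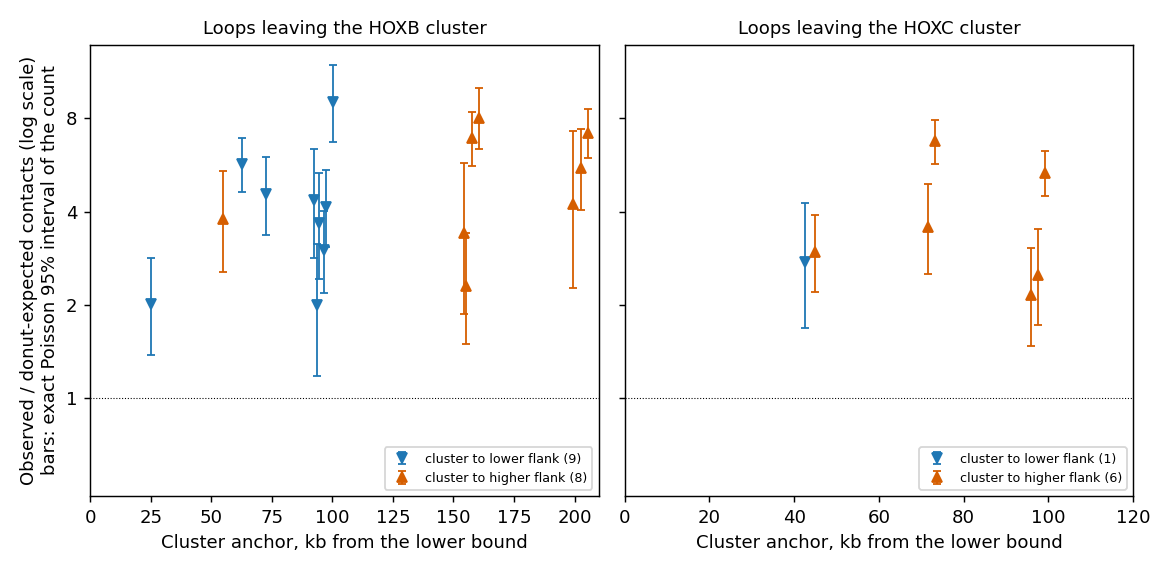
Ratio of observed to donut-expected contacts (log scale) of each loop that leaves a cluster, against the position of its cluster anchor in kb from the cluster's lower bound, with exact Poisson 95% intervals of the count as bars; loops of the same anchor are set slightly apart. In HOXB (left) the downward triangles (to the lower flank) lie left of the upward triangles with 1 exception, and in HOXC (right) 6 of 7 loops point to the higher flank.

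The 2 loops inside the HOXB cluster lay on either side of the space between the hubs. The lower, between 46.615 and 46.65 Mb, had 107 contacts and a ratio of 2.75 (2.25 to 3.32). It was broad, with 28 merged pixels against a median of 3 in the series. The higher, between 46.755 and 46.805 Mb, had 47 contacts and a ratio of 2.17 (1.59 to 2.88). No loop joined the lower part of the cluster with the higher part.

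Most loops that left the HOXC cluster ran to its HOXC4 side. Of 8 loops with an anchor in the cluster, 6 ran to the higher flank, 1 ran to the lower flank and 1 stayed inside. The share of leaving loops that ran to the low-numbered end, the HOXC4 side, was 85.7% (exact binomial 95% interval 42.1 to 99.6%, 6 of 7). For HOXB the share to the low-numbered end, the HOXB1 side, was 52.9% (27.8 to 77.0%, 9 of 17). Over the whole list, 46849 loop ends ran to each side. Both intervals include such an even split, so no lean of either cluster to 1 side can be read. The intervals of HOXB and HOXC overlap, so at this number of loops no difference between the clusters in this share can be read. Several of these loops share an anchor and are not independent, so the intervals understate the uncertainty.

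The best filled loops of the HOXC cluster ended within 15 kb of each other in the higher flank. The loop between 54.40 and 54.595 Mb had 150 contacts and a ratio of 6.75 (5.71 to 7.92), and that between 54.425 and 54.585 Mb had 143 contacts and a ratio of 5.32 (4.49 to 6.27). The first merged 67 significant pixels within a radius of 88708 bp, and only 2 loops of the whole list had merged more. The second was a single pixel inside that radius. The anchor at 54.425 Mb held 2 further loops, with 33 contacts to 54.475 Mb and 32 to 54.525 Mb, and the anchor at 54.40 Mb also reached 54.75 Mb with 37 contacts.

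In the lower part of the cluster, toward HOXC13, 2 anchors held 3 loops. From 54.33 to 54.37 Mb, inside the cluster, there were 86 contacts at a ratio of 3.27 (2.62 to 4.04). The anchor at 54370001 to 54380000 was the only HOXC cluster anchor with loops both ways: besides this loop it reached 54.16 Mb with 20 contacts and 54.77 Mb with 50, the last with 10 kb anchors. The loop to 54.16 Mb, the only one from the cluster to the lower flank, had a largest q-value of 0.211 in the authors' deposited table.

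**Figure D3:**
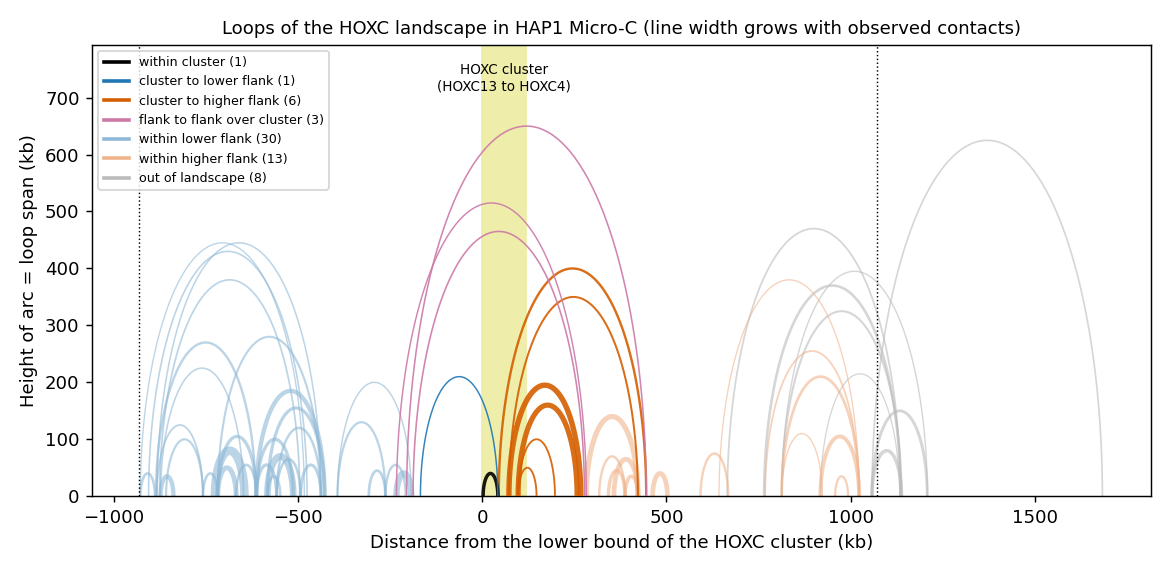
Loops of the HOXC landscape as arcs over their distance from the cluster's lower bound (kb), drawn as for HOXB. The 6 loops to the higher flank include the widest arcs at the cluster, with 150 and 143 contacts, and 3 thin arcs of 19 to 24 contacts pass over the whole cluster.

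The HOXC cluster was passed over by 3 loops between its flanks. These joined 54.095 to 54.61 Mb with 19 contacts, 54.12 to 54.77 Mb with 23 and 54.14 to 54.605 Mb with 24. Their ratios were 3.98, 2.45 and 5.00. They ended in the higher flank near the ends of loops from the cluster itself. Of 18694 tiles of 120 kb with an anchor, 18.6% had no loop passing over, and the median was 3 loops, the number seen at HOXC. Both numbers count all loops, whatever their q-values or anchor width.

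The number of loops crossing each 5 kb bin shows how each cluster sits in its surroundings. In HOXB, 8 or more loops crossed most of the lower flank and 9 crossed the first part of the cluster. Between 46695001 and 46760000 the count was 1, in a run of 65 kb. In the series 22.9% of 586332 bins were crossed by at most 1 loop, with a median of 4. Runs of such bins were not counted over the series. In the HOXC cluster the count was 3 to 9. The nearest bins on each side of the HOXC cluster that no loop crossed were taken to bound a stretch of 845 kb (53935001 to 54780000). In this stretch 21 loops had both anchors, among them all 8 of the cluster and the 3 passing over it. That no loop ran out of it follows from this choice of bounds. How often such stretches occur in the series was not counted. On its lower side no loop crossed 53900001 to 53940000, and on its higher side none crossed 54770001 to 54795000 or, farther out, 54830001 to 54925000.

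**Figure D4:**
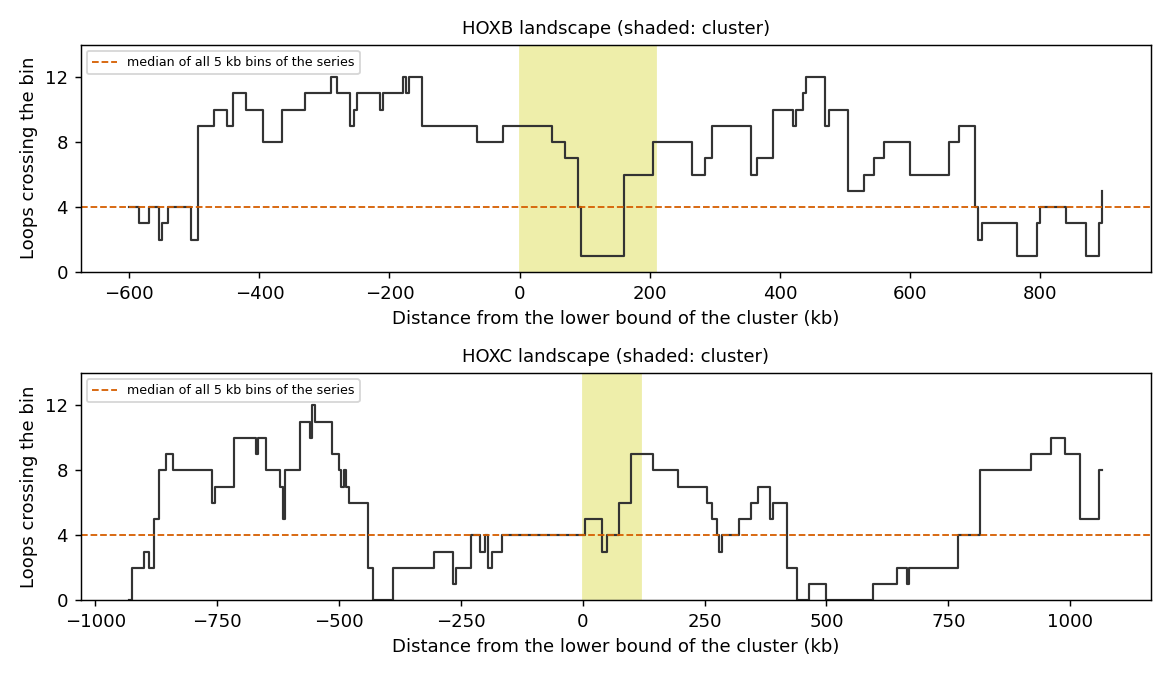
Number of loops crossing each 5 kb bin of the HOXB (top) and HOXC (bottom) landscapes, against distance from the cluster's lower bound in kb; shading marks the cluster and the dashed line the median of all bins of the series, 4. The HOXB line drops to 1 inside the cluster, and the HOXC line reaches 0 on both sides of the cluster.

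In the lower HOXB flank a hub at 46100001 to 46105000 held 7 loops, all to higher coordinates, with 619 contacts in sum. It is the place that the strong loop from the cluster reached. Its loops to 46.15 Mb, with 289 contacts, and to 46.205 Mb, with 177, had ratios of 9.90 and 11.0 and were the best filled of that flank, followed by 46.055 to 46.095 Mb with 124. Anchors at 46.045, 46.15, 46.34 and 46.45 Mb came next with 3 loops each. The hub was joined to 46.15 and 46.34 Mb, which the cluster hub at 46.69 Mb reached too, so that 2 closed triangles of loops included the cluster. The triangle through 46.15 Mb rests on a loop to the cluster hub whose largest q-value was 0.462. In HOXB 3 further triangles did not include the cluster. In HOXC the 2 triangles lay in the lower flank, and none included the cluster. Triangles were not counted over the series.

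In the higher HOXB flank the hub at 47300001 to 47310000 held 10 loops, 8 of them to lower coordinates. Only 79 anchors of the series held as many. With each of the 4 q-values required to be at or below 0.1, it kept 5 of its 10 loops. The loop that reached it from the cluster hub at 46.75 Mb had a ratio of 2.31 and a largest q-value of 0.664. Its highest count was 180, from 47.25 Mb with 10 kb anchors. An anchor at 47105001 to 47110000 held 5 loops, all to lower coordinates, with 14 to 73 contacts, and that at 47.07 Mb held 4. The strongest loop of the flank joined 47.39 and 47.47 Mb, with 174 contacts at a ratio of 13.8, and 47.39 to 47.44 Mb had 183 contacts at a ratio of 2.95, again with 10 kb anchors. Of the 10 loops that left the HOXB landscape, 45.97 to 46.045 Mb had 88 contacts, 47.485 to 47.63 Mb had 85 at the highest ratio of these, 9.69, and 45.97 to 46.015 Mb had 79. The longest of them, 47.49 to 48.075 Mb over 585 kb, had 13.

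Of 34 loops with an anchor in the lower HOXC flank, 30 had both there. The flank is 930 kb long, and the 34 loops had a median span of 112.5 kb. The share in windows of like length was not counted over the series. The 30 loops within the flank had a median of 57 contacts, and most lay below the stretch of the cluster. They included 53.60 to 53.68 Mb with 254 contacts (10 kb anchors) and 53.745 to 53.815 Mb with 194, and the anchor at 53710001 to 53720000 held 6 loops, 3 each way. Anchors at 53.44, 53.61 and 53.89 Mb held 4 loops each. At 53.44 and 53.61 Mb, 1 ran to lower and 3 to higher coordinates, and at 53.89 Mb all ran to lower coordinates. Within the stretch of the cluster, 54.095 to 54.135 Mb had 182 contacts at a ratio of 8.03.

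Of the 30 loops with an anchor in the higher HOXC flank, 13 had both there, 6 ran to the cluster, 3 ran to the lower flank and 8 left the landscape. Within the flank, 54.61 to 54.75 Mb had 141 contacts at a ratio of 6.97, 54.685 to 54.75 Mb had 127 and 54.79 to 54.83 Mb had 125. The strongest loop within it joined 55.245 and 55.35 Mb, with 99 contacts at a ratio of 12.2. The anchors at 54.75, 55.14 and 55.35 Mb held 4 loops each, and each of these ran to 1 side. How often anchors of 4 loops run to 1 side was not counted over the series. Of the loops that left the landscape, 3 came from the anchor at 55.385 Mb. They had 88 contacts to 55.465 Mb, 67 to 55.535 Mb, where the ratio of 15.9 was the highest of all 126 loops, and 26 to 56.01 Mb over 625 kb. A loop from 55.09 to 55.46 Mb had 58 contacts with 10 kb anchors.

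Loop ends were denser in both landscapes than over the covered length of the series, which includes stretches without any loop. The HOXB cluster had 10.0 loop ends per 100 kb, its lower flank 6.83 and its higher flank 8.12. The HOXC cluster had 7.50, its lower flank 6.88 and its higher flank 4.53. The series had 3.20. With 19 loops the HOXB cluster was matched by 1.05% of the 210 kb tiles, which had a median of 6 loops. With 8 loops the HOXC cluster was matched by 16.5% of the 120 kb tiles, which had a median of 4. Gene density and mappability were not compared, and their part in these counts was not tested.

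Over each whole landscape, spans and strengths were near those of the list. The median span was 140 kb in HOXB (95% interval 80 to 225 kb) and 122.5 kb in HOXC (80 to 200 kb), against 160 kb in the series. Loops with an anchor in the HOXB cluster had a median span of 350 kb (110 to 505 kb), against 85 kb (60 to 165 kb) for HOXB loops without one. These intervals overlap. In HOXC the medians were 177.5 kb (40 to 400 kb) with a cluster anchor and 115 kb (75 to 200 kb) without. The median ratio was 3.81 in HOXB (2.97 to 4.55) and 3.90 in HOXC (3.27 to 4.66), against 3.55 in the series, which both intervals include. No loop of either landscape spanned 1 Mb or more, where 3.83% of the series did. An anchor was shared with another loop by 61 of 64 loops in HOXB and 58 of 62 in HOXC, where 89.7% of the series did so.

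Within classes of like span, the share of loops stronger than the list was highest below 200 kb. Of loops under 100 kb, 18 of 27 in HOXB and 16 of 24 in HOXC exceeded the series' median for their span, which 50.0% of all loops do. At 100 to 200 kb, 8 of 11 in HOXB and 10 of 15 in HOXC did. At 200 to 500 kb it was 7 of 19 and 7 of 20, and at 500 kb to 1 Mb 2 of 7 and 1 of 3. Counts this small move by several loops through counting error alone.

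Cluster loops also stood on a higher local background. For 5 kb anchors, the donut expectation of the 14 HOXB cluster loops was a median of 1.47 times that of all series loops of the same span (quartiles 1.33 and 1.74), and above it for 12 of 14. For the 7 HOXC cluster loops it was 1.58 times (quartiles 1.29 and 2.86), and above it for 6. The loops of the HOXB flanks without a cluster anchor were at 0.982 and 0.994, and those of the HOXC flanks at 1.35 (lower) and 0.971 (higher). A higher background lowers the ratio that a given count yields, and its part in the ratios was not tested.

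**Figure D5:**
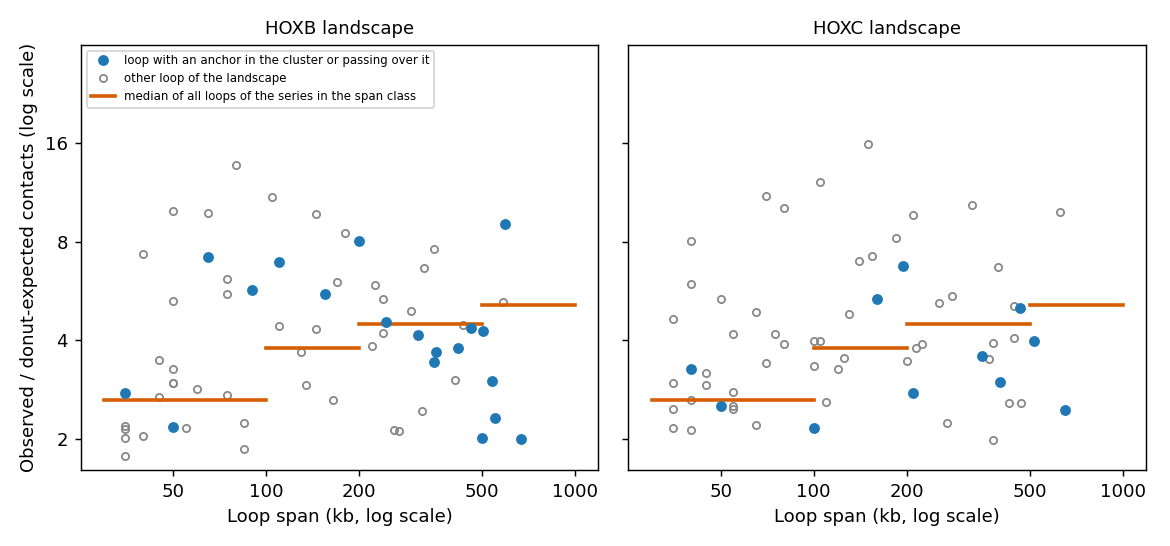
Ratio of observed to donut-expected contacts against loop span (both on log scales) for the HOXB (left) and HOXC (right) landscapes; filled points touch or pass over the cluster, open points are other loops, and lines mark the medians of the series in 4 span classes. Among HOXB loops of 500 kb to 1 Mb, 2 of 7 lie above the line.

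The caller's q-values give the support of each loop. Each of the 4 q-values was at or below 0.1 for 49 of 64 HOXB loops (76.6%, exact binomial 95% interval 64.3 to 86.2%) and 52 of 62 HOXC loops (83.9%, 72.3 to 92.0%), against 72.0% of the series. The HOXB interval includes the value of the series, and the HOXC interval begins just above it. Most loops share an anchor and are not independent, so no difference from the series is read from these intervals. Among loops with an anchor in a cluster it was 13 of 19 in HOXB and 6 of 8 in HOXC. Of the 9 HOXB loops to the lower flank, 6 met this limit, and of the 8 to the higher flank 5 did.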

How the data were processed

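The authors deposited 1 list of loops for the 6 Micro-C replicates of HAP1. The file header names juicer_tools 1.22.01, and the submitters' processing notes name BWA and hg19 without their roles. How the libraries were pooled, how deeply they were sequenced and how the caller was set is not given in the sources used here. For each loop the authors deposited the observed contact count (whole raw counts), 4 expected contact values on the same scale, 4 q-values, the number of merged pixels and their radius in bp.

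Loops were selected by position, with an overlap of at least 1 bp, and anchors that overlapped were merged. Strength is the observed count over the donut expectation. Intervals are exact Poisson for counts, exact binomial for shares and order statistics for medians, all at 95%. No test was made, since the list holds no replicates. In place of one, each value stands beside that of all loops, of all 5 kb bins or of tiles of the cluster's length. The background of a 5 kb loop is its expectation over the median of loops of the same span, where at least 20 exist.

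The members, bounds and lists were chosen with earlier results of these data known. Named are all loops at the clusters, per class of the flanks the 3 best filled and the strongest loop, the longest loops, and anchors with the most loops. Tiles, crossing counts, background and the split at the hubs were added after the data had been seen. Functions were checked on simulated loops. Software was Python 3.11.15 (scipy 1.17.1, matplotlib 3.10.9, pandas 2.3.3, numpy 2.4.6).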

Additional observations from a re-analysis of the deposited data

How the results depend on the processing

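Of 58 alternative values over 14 results, 56 stayed within 1.5 times (counts) or within the interval (shares and medians) of the value reported. The alternatives were anchor midpoints, 5 kb anchors only, a q limit of 0.1, near loops counted once, wider cluster bounds, the lower-left expectation and anchors within 10 kb merged. Values from anchor midpoints could not move, since the anchors and all bounds lie on the same grid. They are counted among the 56 but say nothing on stability. With the q limit, the share of HOXC cluster loops to lower coordinates was 0% (0 to 52.2%) against 14.3%. With anchors within 10 kb merged, the HOXB cluster had 5 anchors against 9. The HOXB split was 6 of 6 to the lower and 6 of 6 to the higher flank with 5 kb anchors. This setting leaves out the exception, which has 10 kb anchors. With the q limit, which the exception met, the split was 6 of 7 and 4 of 4, and neither HOXB hub kept 5 loops. Replicates could not be left out, since the list pools them. No paired analysis was possible because there is 1 group. Counts of 13 to 30 contacts limit single loops.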
